A study of Rattus norvegicus with 8 samples.

Results

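Genes of retinoic acid metabolism and retinol transport were followed in the heads of rat embryos that differed in the transcription factor Pax6. The 7 genes were Aldh1a1, Aldh1a2, Cyp26b1, Crabp2, Rbp4, Ttr and Rxra, out of 4737 genes named by a single symbol on the array. They were taken by symbol, with every probe set that the platform annotation gave to 1 of them alone, which made 10 of 8799 probe sets. A probe set is the group of short oligonucleotides that measures 1 transcript on an Affymetrix array. Pax6 is a paired-domain factor needed to form eye, nose and forebrain, and going by its title the series looked for genes that act downstream of it.

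The 4 groups were Pax6 homozygous forebrain, wild-type forebrain, Pax6 homozygous hindbrain and wild-type hindbrain, all from E12.5 embryos and each on 2 arrays, 8 in all. Homozygous is the only term that the labels give for the mutant, and they do not name the allele. The head was divided at the isthmus. The forebrain part therefore carried the midbrain and the primordia of the eye and nose with it, and the hindbrain part carried the pharyngeal arches. Neither pooling of embryos nor the use of separate litters is stated, so p-values measure the spread between these arrays, which may be technical. The number of arrays limits the precision of every value.

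Retinol travels in blood bound to retinol-binding protein, which is itself held by transthyretin. Inside cells, retinol is oxidised to retinaldehyde, and retinaldehyde dehydrogenases of the Aldh1a family make retinoic acid from it. Retinoic acid is carried by small binding proteins, acts through nuclear receptors that pair with retinoid X receptors, and is broken down by cytochromes of the Cyp26 family. In the embryo the retina, the paraxial mesoderm, the spinal cord and the hindbrain are classic sites of this signal.

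Over all genes, the arrays had nearly the same trimmed mean intensity (2504.05 to 2504.79). The 2 arrays within each group correlated at r between 0.94 and 0.968 in log2 value, over all probe sets except controls, tested or not. Each array's noise level, taken as the size of its 5th percentile, was 389 to 619.8 on the first arrays of the groups and 243 to 351.7 on the second arrays. The deposited table held negative intensities, and below the noise level the values have no useful order. The Pax6 probe set S74393_s_at read 1243 and 927 in Pax6 homozygous forebrain, against 1197 and 636 in wild-type forebrain. It read 1194 and 1111 in Pax6 homozygous hindbrain, against 827 and 531 in wild-type hindbrain. Where the mutation lies relative to this probe set is not given, so these values check nothing about the genotype labels. The parts of the head carried their own markers. Nkx2-1 (X53858_at), a homeodomain factor of the ventral forebrain, read 6738 and 7299.6 in Pax6 homozygous and 4011 and 4277 in wild-type forebrain, against 234 and 272 in Pax6 homozygous and 658 and 228 in wild-type hindbrain. Hoxa5, of the caudal hindbrain and cervical cord, was above noise on hindbrain arrays only.

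Promoter sequences of Aldh1a1, Aldh1a2 and Ttr are shown because the results below turn on these genes: Aldh1a1 had the smallest genotype p of the members, and Aldh1a2 and Ttr were both low in forebrain. Each is the 250 bases upstream of the annotated start in RefSeq's rat build GRCr8, 5′ to 3′ on the plus strand, on which all 3 genes lie. They are chr1:227537370-227537619 for Aldh1a1, chr8:80758391-80758640 for Aldh1a2 and chr18:12218508-12218757 for Ttr. Capitals mark matches to the motifs described after them.
Aldh1a1: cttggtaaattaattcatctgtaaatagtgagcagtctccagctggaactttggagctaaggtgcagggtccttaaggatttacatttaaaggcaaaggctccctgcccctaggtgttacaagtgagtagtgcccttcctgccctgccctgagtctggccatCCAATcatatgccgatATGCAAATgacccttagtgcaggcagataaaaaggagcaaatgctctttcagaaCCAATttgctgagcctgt
Aldh1a2: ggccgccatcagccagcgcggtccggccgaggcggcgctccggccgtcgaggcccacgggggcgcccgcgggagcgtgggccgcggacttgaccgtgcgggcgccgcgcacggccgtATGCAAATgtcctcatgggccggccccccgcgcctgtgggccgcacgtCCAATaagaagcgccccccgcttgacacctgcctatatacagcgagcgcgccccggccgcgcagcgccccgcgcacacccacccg
Ttr: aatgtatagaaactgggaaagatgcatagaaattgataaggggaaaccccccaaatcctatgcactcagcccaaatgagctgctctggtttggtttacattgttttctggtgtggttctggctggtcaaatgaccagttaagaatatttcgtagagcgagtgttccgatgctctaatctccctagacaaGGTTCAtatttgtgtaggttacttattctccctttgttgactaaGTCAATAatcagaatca

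A set of 10 motifs was searched on both strands in the 250 bases of all 7 genes, and of 33469 RefSeq promoters as a background. The octamer of POU factors, ATGCAAAT, lay 72 to 65 bases upstream of the Aldh1a1 start and 133 to 126 bases upstream of the Aldh1a2 start, and 1.56% of all promoters held it. It was added to the search after the letters had been seen. CCAAT, held by 34% of promoters, lay at 88 to 84 and at 18 to 14 bases upstream of Aldh1a1 and at 85 to 81 bases upstream of Aldh1a2. In the Ttr promoter, the retinoic acid receptor half-site GGTTCA (9.77% of promoters) lay 61 to 56 bases upstream. The forkhead core TATTGAC (1.28% of promoters) was read there on the minus strand, as GTCAATA on the printed strand, 17 to 11 bases upstream. Rbp4 held TTCACGC, part of the paired-domain consensus of Pax6 and present in 1.06% of promoters, 17 to 11 bases upstream. The half-sites AGGTCA (14.1%) and AGTTCA (12.2%) and the repeats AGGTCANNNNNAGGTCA and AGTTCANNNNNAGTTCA (0.00896% each) were in none of the 7. The repeat AGGTCANNAGGTCA was in 0 of the 33469 promoters. Cyp26b1, Crabp2 and Rxra matched no motif, which says only that these letters are absent from the window.

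Of the 10 probe sets, 7 covering 6 genes exceeded an intensity of 255 on at least 2 arrays and were tested. The 3 that were not tested were L06482_at of Rxra, and K03045cds_r_at and M10934_s_at of Rbp4. Only Aldh1a1 and Crabp2 were above noise on all 8 arrays.

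**Figure D1:**
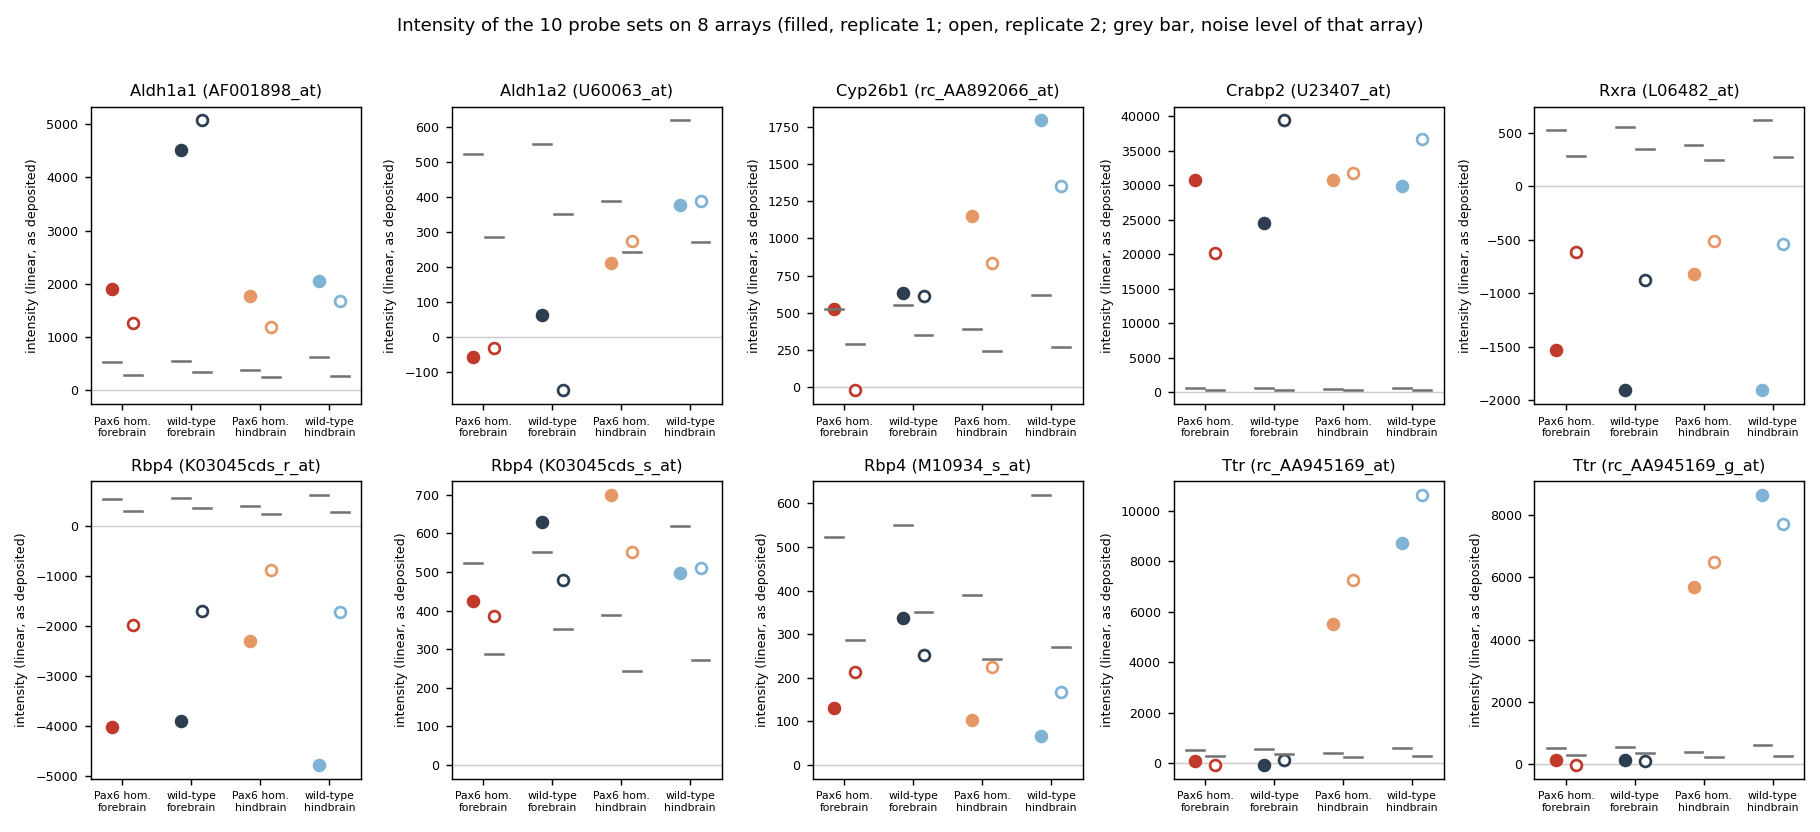
Intensity, on the linear scale as deposited, of the 10 probe sets of the 7 genes in the 4 groups. Each point is 1 array (filled, first array; open, second array) and each grey bar is that array's noise level. Aldh1a1 stands highest on the wild-type forebrain arrays, at 4504 and 5075, and both Ttr probe sets are above noise only on hindbrain arrays. Each panel has its own vertical scale.

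Aldh1a1, a retinaldehyde dehydrogenase that is prominent in the dorsal retina and in midbrain dopaminergic precursors in the mouse, had the smallest p of the 7 tested probe sets for genotype in forebrain. AF001898_at read 1896 and 1257 in Pax6 homozygous forebrain, against 4504 and 5075 in wild-type forebrain. In the hindbrain parts it read 1768 and 1194 in Pax6 homozygous embryos, against 2047 and 1672 in wild-type embryos. The wild-type forebrain arrays were thus the highest of the 8, and the other 6 lay between 1194 and 2047 with overlapping groups.

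The mean was 1577 ± 452 in Pax6 homozygous forebrain and 4790 ± 404 in wild-type forebrain (SD, n = 2 each). The log2 difference was -1.63 ± 0.31 (SE; 95% interval -2.33 to -0.93), a level 3.10-fold lower in the mutant. It ranked 8 of 5881 probe sets by p in limma (unadjusted p = 0.00055), but the Benjamini-Hochberg adjusted p of 0.404 missed the threshold of 0.05. In hindbrain the difference was -0.35 ± 0.31 (adjusted p = 0.991, limma). The forebrain effect minus the hindbrain effect was -1.28 ± 0.43 (95% interval -2.27 to -0.30), with an unadjusted p of 0.0167 and an adjusted p of 0.9995 in limma's interaction test. Averaged over both regions the change was -0.99 ± 0.22 (adjusted p = 0.679, limma). In bulk tissue, fewer cells of a type and less RNA per cell cannot be told apart.

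Sums of marker lists for other tissues are given beside Aldh1a1, and not all of them fell with it in Pax6 homozygous forebrain. Each sum adds intensities as deposited, with values that are negative or below noise included. Of 18 lens genes, 13 were on the array, and their summed intensity was 3698 to 4263 in Pax6 homozygous forebrain, against 9271 to 11007 in wild-type forebrain. It was 5288 to 5728 in Pax6 homozygous hindbrain and 2954 to 4533 in wild-type hindbrain. Negative values lowered the wild-type hindbrain sum, with Foxe3 at -1177 and Crybb1 (X05900_at) at -767.5 on its first array. The order of the hindbrain sums is therefore not read. Cryba4, Crybb1, Crygc and Foxe3 were above noise on 0 of 8 arrays, and Cryaa and Mip on all. Most of the forebrain difference in this sum came from Cryaa, given below, and Crybb3. Crybb3 read 469 and 156 in Pax6 homozygous forebrain, against 1779 and 2240 in wild-type forebrain. Mip differed little, at 1547 and 1190 against 1669 and 1449 in that order. Blood genes, 9 of 16 on the array, summed to 150280 to 151686 in Pax6 homozygous forebrain, against 177324 to 192627 in wild-type forebrain. Their sum was also lower in mutant hindbrain, at 140620 to 144253, against 157428 to 168818 in wild-type hindbrain. Macrophage genes, 9 of 12, summed to 2279 to 2829 in Pax6 homozygous forebrain, against 3213 to 3400 in wild-type forebrain, with Cd74, Csf1r, Fcgr2b and Lyz2 above noise on 0 of 8 arrays. Only 1 of the 9 was above noise on both Pax6 homozygous forebrain arrays, and 2 on both wild-type forebrain arrays. The macrophage sums overlapped in hindbrain, at 3080.5 to 3519 in Pax6 homozygous and 2797.5 to 3808 in wild-type embryos. Midbrain dopaminergic genes, 8 of 11, summed to 5084 to 5831 in Pax6 homozygous forebrain, against 4975 to 5200 in wild-type forebrain. Within that list Pitx3, a factor of dopaminergic neurons and of the lens, read 770.0 and 1063 in Pax6 homozygous forebrain, against 2259 and 1773 in wild-type forebrain (-1.15 ± 0.55, adjusted p = 1, limma). Ddc, a decarboxylase of amine neurons, read 267 and 746 in Pax6 homozygous forebrain, against -776 and 135 in wild-type forebrain (2.50 ± 0.85, adjusted p = 1, limma). Of these Ddc values only the 746 was above noise, so the change depends on the floor and its direction is not read. The -776 is part of the wild-type dopaminergic sum. Olfactory placode and epithelium genes, 9 of 12, overlapped, at 9151 to 9777 in Pax6 homozygous and 9406 to 9725 in wild-type forebrain. Head mesenchyme and connective tissue genes, 12 of 18, also overlapped, at 82235 to 90834 and 88468 to 89704 in that order. None of the 14 genes listed for the optic vesicle, retina and pigment epithelium was on the array under a single symbol. The part of these tissues in the Aldh1a1 difference was not tested.

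The genes whose log2 values followed Aldh1a1 most closely over the 8 arrays, among about 4041 candidates, were Cryaa, Abcc6 and Slc4a1, with Pearson's r of 0.961, 0.931 and 0.928. Cryaa encodes a lens crystallin and Slc4a1 the anion exchanger of red cells. All of these correlations rest on the same 8 arrays and were searched for, so they describe these arrays only. Cryaa read 1303 and 683 in Pax6 homozygous forebrain, against 4919 and 5254 in wild-type forebrain, with a log2 difference of -2.43 ± 0.37 (adjusted p = 0.248, limma). Like Aldh1a1, it stood highest on both wild-type forebrain arrays.

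**Figure D2:**
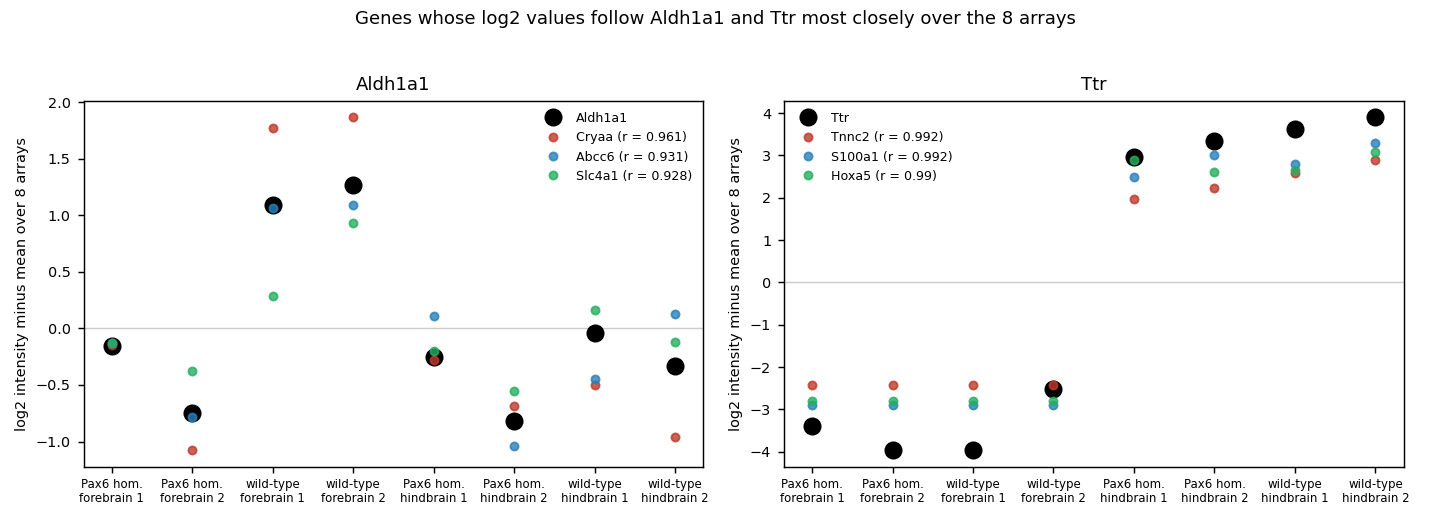
Log2 intensity minus its mean over the 8 arrays, by array, for Aldh1a1 (left) and Ttr (right), each in large black points with the 3 genes that followed it most closely. Cryaa, with r = 0.961, shares the high wild-type forebrain arrays of Aldh1a1, and Tnnc2, S100a1 and Hoxa5 share the low forebrain arrays of Ttr. Values under 45.9 are drawn at that floor.

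Aldh1a2, the main retinaldehyde dehydrogenase of the early embryo and of spinal motor neurons, was near or below noise. U60063_at read -56.5 and -32.2 in Pax6 homozygous forebrain, and 62.8 and -152.3 in wild-type forebrain. In the hindbrain parts it read 211 and 274 in Pax6 homozygous embryos, against 378 and 387 in wild-type embryos. It was above noise on 2 arrays, the second hindbrain array of each genotype, and all 4 forebrain arrays were below all 4 hindbrain arrays.

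The forebrain minus hindbrain difference of Aldh1a2 was -2.61 ± 0.62 on the log2 scale (unadjusted p = 0.00255, adjusted p = 0.110, limma). That value depends on where low intensities are set. With each array's noise level as the floor it became 0.05, and with no filter on dim probe sets, or with no intensity trend in the model, the adjusted p was 0.00633 and 0.00242. No lower bound on the fold above 1 could be given. The genotype differences were -0.23 ± 0.88 in forebrain and -0.67 ± 0.88 in hindbrain (both adjusted p = 1, limma), although the 2 mutant hindbrain arrays lay below both wild-type ones.

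Cyp26b1, a cytochrome that breaks retinoic acid down and that marks hindbrain segments and branchial arches in the mouse, was higher in the hindbrain parts by value. Its probe set rc_AA892066_at read 527.5 and -22.7 in Pax6 homozygous forebrain, against 632.3 and 614.8 in wild-type forebrain. It read 1152 and 835 in Pax6 homozygous hindbrain, against 1798 and 1352 in wild-type hindbrain. The 4 forebrain arrays lay below the 4 hindbrain arrays, and in each region the mutant arrays lay below the wild-type arrays.

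The regional difference was -1.99 ± 0.66 for forebrain minus hindbrain (unadjusted p = 0.0155, adjusted p = 0.334, limma). It rested in part on the second Pax6 homozygous forebrain array, whose negative value was set to the floor. Without the first Pax6 homozygous forebrain array, the difference became -2.87 (adjusted p = 0.0081), and without the second it was -1.11. It was -1.13 (adjusted p = 0.0473) with the pooled median as the floor and -1.33 (adjusted p = 0.0438) with the noise level as the floor. The genotype differences were -2.0 ± 0.94 in forebrain and -0.67 ± 0.94 in hindbrain, each with an adjusted p of 1 by limma. The forebrain value was -0.24 without the second Pax6 homozygous forebrain array and -3.76 without the first, and it was -0.28 and -0.68 with the pooled median and the noise level as the floor. Averaged over the regions, the genotype difference was -1.34 ± 0.66 (adjusted p = 0.928, limma). It became -0.45 and -2.22 without those arrays in the same order, and -0.48 and -0.67 with those floors.

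Crabp2, which brings retinoic acid to its receptors in the nucleus, was bright on every array. U23407_at read 30707 and 20182 in Pax6 homozygous forebrain, against 24580 and 39439 in wild-type forebrain. It read 30722 and 31820 in Pax6 homozygous hindbrain, against 29819 and 36628 in wild-type hindbrain. The groups overlapped in every comparison. The differences were -0.32 ± 0.26 for genotype in forebrain (95% interval -0.91 to 0.26), -0.08 ± 0.26 for genotype in hindbrain (-0.66 to 0.50) and -0.21 ± 0.18 for forebrain minus hindbrain. None of them passed the limma test.

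Rxra, a retinoid X receptor that forms the partner of the retinoic acid receptors, gave no usable level. L06482_at was negative on all 8 arrays, from -1907 to -513, and was not tested. These values say nothing of whether the transcript was present.

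Rbp4, the carrier of retinol in blood, was measured by 3 probe sets that did not behave alike. K03045cds_s_at read 424 and 386 in Pax6 homozygous forebrain, against 630 and 480 in wild-type forebrain. In hindbrain it read 700.0 and 552 in Pax6 homozygous embryos, against 497 and 509.6 in wild-type embryos. The mutant arrays thus lay below the wild-type arrays in forebrain and above them in hindbrain, while only 6 of the 8 values exceeded noise. The log2 differences were -0.44 ± 0.42 in forebrain and 0.30 ± 0.42 in hindbrain, neither past the limma test, and their difference was -0.75 ± 0.60 (adjusted p = 0.9995, limma). M10934_s_at lay between 67.5 and 336 and was above noise on 0 of 8 arrays. K03045cds_r_at was negative on all 8, from -4789 to -895. Forebrain minus hindbrain was -0.25 ± 0.30 for K03045cds_s_at (adjusted p = 0.989, limma).

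Ttr, transthyretin, is made by yolk sac endoderm, liver and the choroid plexus, whose first site is the roof of the hindbrain. Both of its probe sets were above noise on the 4 hindbrain arrays and on 0 of the 4 forebrain arrays. In rc_AA945169_at the intensities were 67.7 and -75.4 in Pax6 homozygous forebrain, and -63.4 and 123.8 in wild-type forebrain. They were 5507 and 7258 in Pax6 homozygous hindbrain, against 8751 and 10649 in wild-type hindbrain. The companion rc_AA945169_g_at, designed to the same sequence entry, read 129.5 and -27.2 in Pax6 homozygous forebrain and 129.9 and 114.3 in wild-type forebrain. It read 5698 and 6500.0 in Pax6 homozygous hindbrain, against 8647 and 7702 in wild-type hindbrain.

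Forebrain was lower than hindbrain by at least 18.9-fold for rc_AA945169_at and at least 17.1-fold for rc_AA945169_g_at. These bounds set each dim array at its noise level. The fitted log2 differences were -6.91 ± 0.37 (adjusted p = 3.76e-05) and -6.18 ± 0.35 (adjusted p = 4.43e-05) in limma, and they depend on the floor. With the pooled median as the floor the differences were -3.97 and -3.83, and with the noise level -4.24 and -4.09, and they passed the test under every alternative run. Within each genotype the differences were -6.83 in Pax6 homozygous and -7.0 in wild-type embryos for the first probe set, and -6.30 and -6.07 for the second. By genotype in hindbrain, the mutant arrays lay below the wild-type arrays in both probe sets. Those differences, -0.61 ± 0.52 and -0.42 ± 0.49, did not pass the limma test (both adjusted p = 0.991). The forebrain genotype values of Ttr compare signals below noise and are not read.

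Markers of tissues that also make Ttr were set beside it. Of 21 visceral endoderm and liver genes other than Ttr and Rbp4, 17 were on the array. Their summed intensity overlapped between the parts, at 8168 to 9159 in Pax6 homozygous and 10646 to 11514 in wild-type forebrain, and 8848 to 10213 in Pax6 homozygous and 9060 to 12398 in wild-type hindbrain. Apoe (X04979_at) was the largest part of that sum on every array, at 3647 to 8913. Afp, Ambp, Amn, Apoa2, Apoh, Cubn, Fgb, Fgg and Serpina1 were above noise on 0 of 8 arrays, and Apob and Apoe on all 8. The 6 measured of 13 choroid plexus and roof plate genes summed to 21000 to 28364 in Pax6 homozygous and 20297 to 25734 in wild-type forebrain. They summed to 30935 to 31459 in Pax6 homozygous and 33857 to 35914 in wild-type hindbrain. Most of that sum was Igf2, which is also made by mesenchyme and read 14508 to 21355 on forebrain arrays and 25662 to 29517 on hindbrain arrays. Bmp6 (X58830_at) shared its direction, at 557 to 679 on forebrain and 732 to 1217 on hindbrain arrays. Msx1 and Bmp7 did not share it: Msx1 read 3793 to 7079.6 on forebrain and 3395 to 4677 on hindbrain arrays, and Bmp7 712 to 1217 on forebrain and 154 to 595 on hindbrain arrays. Kl, above noise on 3 of 8 arrays, overlapped between the parts. Aqp1 was above noise on 0 of 8 arrays, and Bmp6, Igf2 and Msx1 on all 8.

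Muscle and motor neuron genes also stood apart between the parts. Skeletal and heart muscle genes, 14 of 18 on the array, summed to 3641 to 6021 in Pax6 homozygous and 3877 to 5801 in wild-type forebrain. They summed to 29702 to 34132 in Pax6 homozygous and 32404 to 35062 in wild-type hindbrain. Motor neuron genes other than Aldh1a2, 5 of 8, summed to 1704 to 1925 in Pax6 homozygous and 1083 to 1689 in wild-type forebrain. They summed to 2522 to 4796 in Pax6 homozygous and 6179 to 8090 in wild-type hindbrain, with Chat above noise on 0 of 8 arrays. The part of these tissues in the regional differences of Ttr, Aldh1a2 and Cyp26b1 was not tested.

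Over the 8 arrays, Ttr was followed most closely by Tnnc2 (r = 0.992), S100a1 (0.992) and Hoxa5 (0.99), and Aldh1a2 by Tnnc2 (0.99), Prph (0.986) and S100a1 (0.984). Tnnc2 encodes a troponin of fast muscle, S100a1 a calcium-binding protein of muscle, Prph the peripheral neuron filament peripherin, and Hoxa5 a homeodomain factor of the cervical region. All of these share the step between the 4 forebrain and the 4 hindbrain arrays. Cyp26b1 was followed by Cd24 (0.967), Aktip (0.966) and Ppp1r1a (0.95). Crabp2 was followed by Sub1 (0.981), Cyth2 (0.94) and Ube2b (0.929), and Rbp4 by Acaa1b (0.971), Casq1 (0.941) and Strn (0.935).

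Read together by comparison, 0 of the 7 tested probe sets passed the threshold for genotype in forebrain, where 0.017% of all 5881 tested probe sets did. The mutant arrays lay below the wild-type arrays without overlap in 3 of 7 (Aldh1a1, Cyp26b1 and Rbp4), against 10.5% of all tested, and above them in 0 of 7, against 737 of the 5881. Among those 3, the first mutant value of Rbp4 and the second of Cyp26b1 lay below noise. At an unadjusted limma p under 0.05 there was 1 of 7, Aldh1a1, against 2.92% of all tested. In hindbrain 0 of 7 passed, again against 0.017%, and 0 of 7 had an unadjusted p under 0.05 in limma, against 4.49%. The arrays did not overlap in 4 of 7 that were lower in the mutant (Aldh1a2, Cyp26b1 and both Ttr probe sets), against 14.5% of all tested, and in 1 of 7 that was higher (Rbp4), against 20.1%. The first Aldh1a2 array of each genotype and the first wild-type Rbp4 array lay below noise, where values have no useful order. Averaged over both regions, 0 of 7 passed (0.034% of all tested), and Aldh1a1 was the 1 probe set with an unadjusted limma p under 0.05 (5.02% of all tested). In the interaction, 0 of 7 passed and 0 of all tested, with 1 of the 7, Aldh1a1, and 112 of all tested, 1.9%, at an unadjusted limma p under 0.05. The forebrain and hindbrain comparisons share no arrays, whereas the average over regions reuses both.

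Between the parts of the head, 2 of the 7 probe sets, both of Ttr, were lower in forebrain past the threshold, against 1.22% of all tested that were lower and 1.51% in either direction. Ttr and Aldh1a2 entered the test only through hindbrain arrays, since their forebrain values were all under 255, so their direction was largely fixed by the filter and no count over the members is read here. Aldh1a1 was the 1 probe set with a positive value, 0.73 ± 0.22 (adjusted p = 0.243, limma), and its arrays overlapped. Its forebrain minus hindbrain difference was 0.09 in Pax6 homozygous embryos and 1.37 in wild-type embryos.

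**Figure D3:**
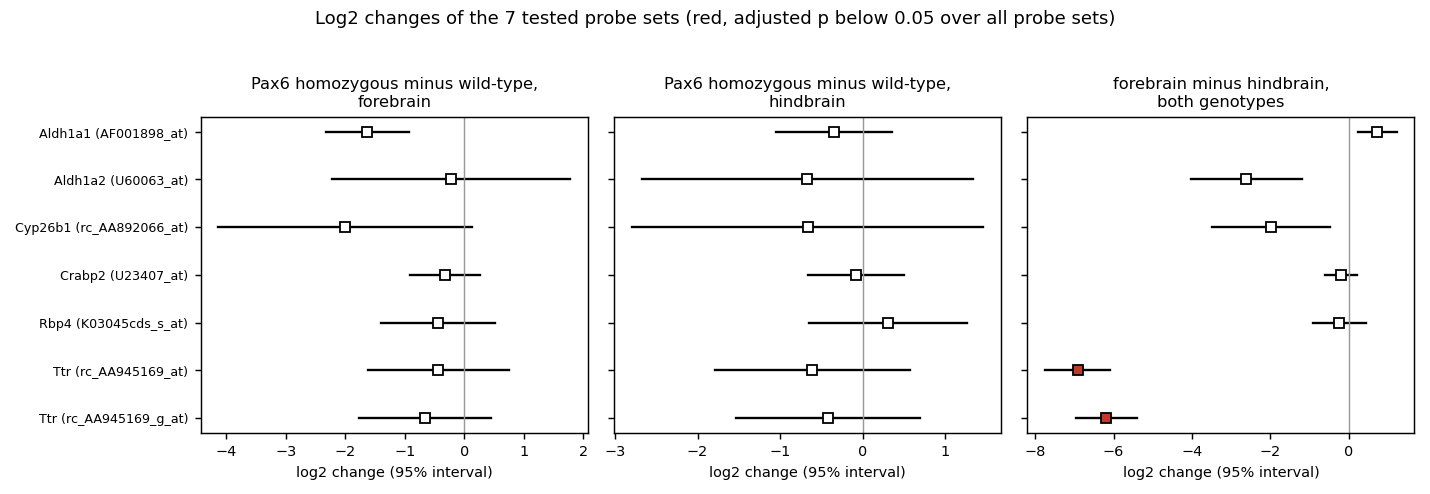
Log2 change with its 95% interval for the 7 tested probe sets: Pax6 homozygous minus wild-type in forebrain (left) and in hindbrain (middle), and forebrain minus hindbrain over both genotypes (right). Red marks an adjusted p below 0.05 over all 5881 probe sets, which only the 2 Ttr probe sets reached, at -6.91 and -6.18 in the right panel. The Aldh1a1 interval in the left panel runs from -2.33 to -0.93.

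The wider retinoid pathway was listed by role as 64 genes, of which 30 were on the array and 21 were tested, 1 probe set a gene. In forebrain 6 had a positive and 14 a negative genotype difference, with a median of -0.09, beside 1828 positive, 1716 negative and a median of 0.01 over all 3553 genes tested. In hindbrain 9 were positive and 12 negative, with a median of -0.08, beside 1915 positive, 1632 negative and a median of 0.03 over all genes. These counts include genes below noise. No gene passed the limma test in either comparison, in which 1 and 0 of the 21 had an unadjusted p under 0.05, against 102 and 153 of the 3553. Forebrain minus hindbrain was positive in 9 and negative in 12, with a median of -0.17 beside -0.01 over all genes. Ttr was the 1 gene called, lower in forebrain, where 40 of the 3553 genes were called lower and 14 higher. Without the 6 genes tested here, 15 remained, of which 8 were positive and 7 negative between the parts and 0 were called by limma, 6 of them with an unadjusted p under 0.05, against 305 of the 3553 genes.

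Among enzymes that oxidise retinol, Rdh10, which makes retinaldehyde in the embryo, had the smallest regional p. It read 734.5 and 477 in Pax6 homozygous and 568 and 557 in wild-type forebrain, against 1071 and 1478 in Pax6 homozygous and 1047 and 894.5 in wild-type hindbrain. The 4 forebrain arrays lay below the 4 hindbrain arrays, with a log2 difference of -0.94 ± 0.27 (adjusted p = 0.221, limma). Rdh16 and Adh7, each above noise on 1 of 8 arrays, had the smallest genotype p of that role, with -1.42 ± 1.06 for Rdh16 in forebrain and -1.83 ± 1.06 for Adh7 in hindbrain, neither past the limma test.

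Of the binding proteins, Crabp1, which holds retinoic acid in the cytoplasm, read 41570 to 53698 over the 8 arrays. Its forebrain minus hindbrain difference was -0.17 ± 0.09 (adjusted p = 0.756, limma). Fabp5, which can also carry retinoic acid, read 38186 to 46354 and differed by genotype in hindbrain by -0.09 ± 0.12. Of the receptors, the retinoid X receptor Rxrg had the smallest p in forebrain by genotype (0.74 ± 0.47, adjusted p = 1) and by region (-0.89 ± 0.33, adjusted p = 0.459), both in limma. Its probe set AF016387_g_at read 1595 and 708 in Pax6 homozygous forebrain, against 878 and 461 in wild-type forebrain, and 1366 and 1263 in Pax6 homozygous hindbrain, against 2021 and 1529 in wild-type hindbrain. Rara, a retinoic acid receptor, differed by genotype in hindbrain by 0.32 ± 0.19 (U15211_at, 5443 to 9397 over the 8 arrays), and Rxrb over both regions by -0.30 ± 0.34. None of these passed the test. Other Rara probe sets went the other way in hindbrain. AJ002940cds_s_at read 858 and 1182 in Pax6 homozygous hindbrain, against 1193 and 1388 in wild-type hindbrain. U15211_g_at had means of 2335 and 2524 in that order, with overlapping arrays. The dimmer Rxrg probe set AF016387_at also ran against AF016387_g_at in hindbrain. It read 494.5 and 519 in Pax6 homozygous hindbrain, against 387 and 223 in wild-type hindbrain, where both values lay below noise.

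Of genes of retinoid storage and supply, Lpl, a lipase that also splits the retinyl esters of lipoproteins, read 632 and 803 in Pax6 homozygous and 758 and 818 in wild-type forebrain. It read 1167 and 1104 in Pax6 homozygous and 1345 and 1519.7 in wild-type hindbrain, so that all 4 forebrain arrays lay lower (-0.77 ± 0.22, adjusted p = 0.226, limma). Dgat1, which can esterify retinol, differed by genotype in forebrain by 0.14 ± 0.20, and the coactivator subunit Med1 by 0.28 ± 0.40. Lrp2 (megalin), an endocytic receptor that takes up retinol-binding protein, was picked out after its values were seen. L34049_g_at read 2110 and 2640 in Pax6 homozygous and 2017 and 1881 in wild-type forebrain, against 1287 and 1055 in Pax6 homozygous and 1352 and 997 in wild-type hindbrain. In this probe set forebrain lay above hindbrain on every array, by 0.88 ± 0.20 (adjusted p = 0.0967, limma), which missed the threshold. L34049_at also did not overlap, at 685 to 1256 on forebrain and 197 to 528 on hindbrain arrays. The arrays of rc_AA891764_s_at overlapped, at 362 to 796 on forebrain and 209.5 to 518 on hindbrain arrays.

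**Figure D4:**
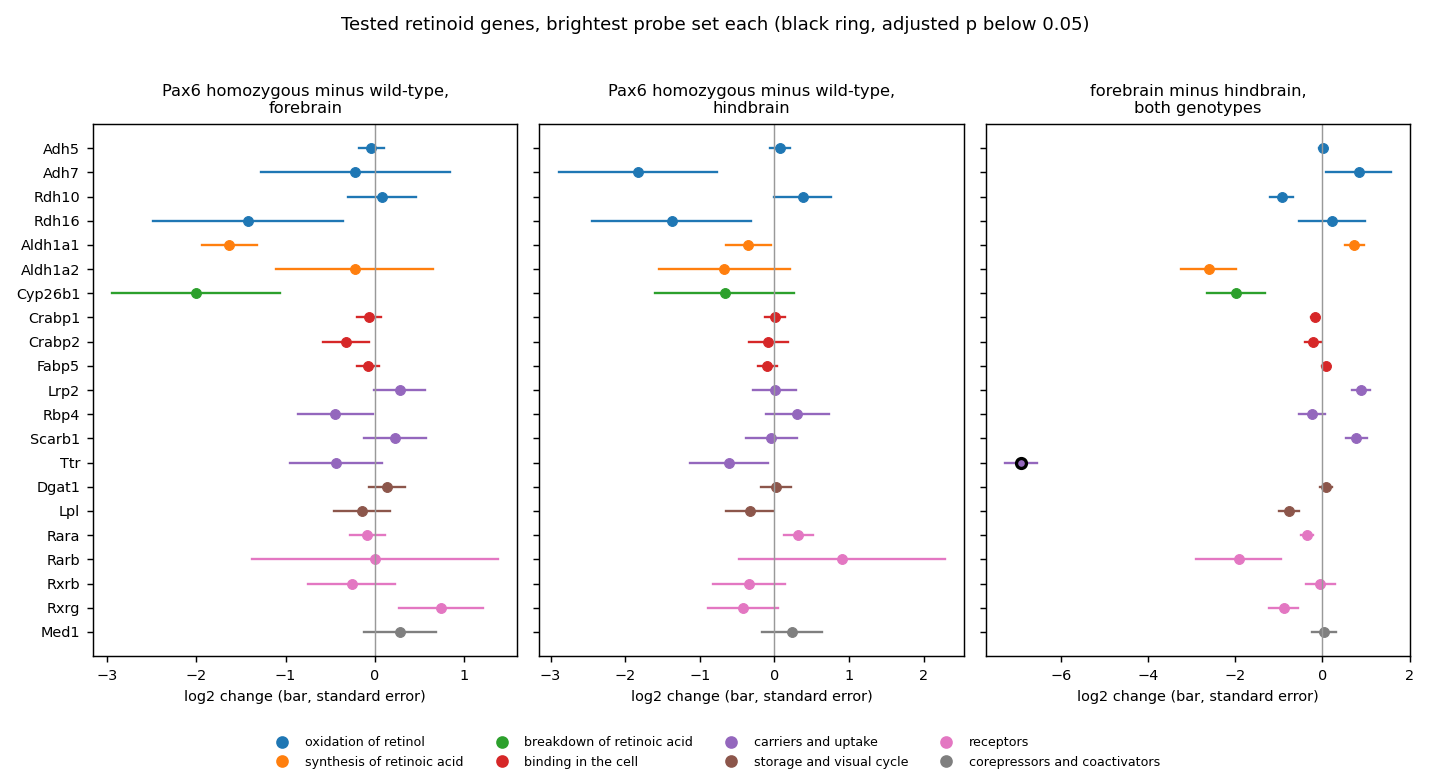
Log2 change with its standard error for the 21 tested retinoid genes, brightest probe set each, coloured by role: Pax6 homozygous minus wild-type in forebrain (left) and in hindbrain (middle), and forebrain minus hindbrain (right). Ttr, ringed in black at -6.91 in the right panel, is the 1 gene past the threshold, and the median over the 21 genes is -0.09 in the left, -0.08 in the middle and -0.17 in the right panel.

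Of 32 genes known to respond to retinoic acid, 9 were on the array and 7 were tested. In forebrain 0 had a positive and 5 a negative genotype difference, beside 1828 positive and 1716 negative over all 3553 genes. Hoxa5 and Rarb had none there, because all their forebrain values were set to the floor. In hindbrain 4 were positive and 3 negative, beside 1915 positive and 1632 negative over all genes. These counts include genes below noise, such as Egr2 on all 4 forebrain arrays. No gene was called by limma in either comparison, 0 and 0 of the 7 having an unadjusted p under 0.05, against 102 and 153 of the 3553. Between the parts, 7 of 7 had a negative forebrain minus hindbrain value, with a median of -0.32, and 1 was called, against 1845 negative and 40 called lower of the 3553 genes. Hoxa5, Rarb and Egr2 entered the test only through hindbrain arrays. That gene, Hoxa5, read -77.8 and -27.7 in Pax6 homozygous and -95.5 and 37.0 in wild-type forebrain, against 2378 and 1955 in Pax6 homozygous and 2041 and 2723 in wild-type hindbrain. It was lower in forebrain by at least 5.46-fold (fitted log2 difference -5.62 ± 0.37, adjusted p = 7.8e-05, limma).

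Nr2f1 (U10995_g_at), an orphan nuclear receptor of the neural tube, read 13146 to 17067 over the 4 forebrain arrays and 15178 to 19798 over the 4 hindbrain arrays. Its difference was -0.27 ± 0.12 by region (adjusted p = 0.631) and 0.22 ± 0.17 by genotype in hindbrain (adjusted p = 0.991), in limma. A dimmer Nr2f1 probe set, U10995_at, was lower by mean in mutant hindbrain, at 941 and 584 against 1279 and 589 in wild-type hindbrain. Egr2, the factor of hindbrain segments known as Krox20, was above noise on 1 of 8 arrays, with -0.92 ± 0.80 by genotype in forebrain. Rarb, a retinoic acid receptor that is itself induced by the ligand, was above noise on 2 of 8 arrays, both hindbrain, with -1.93 ± 0.97 by region (adjusted p = 0.692, limma). Ret, a receptor tyrosine kinase, had -0.51 ± 0.60 by genotype in forebrain.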

How the data were processed

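Per the labels' protocols, cDNA was made from the poly(A) RNA of each head part, transcribed into biotinylated cRNA and applied to Affymetrix rat arrays. The deposited values were linear intensities, 1 for each probe set on each array, some negative and without detection calls. Their algorithm is not given in the sources used here. The authors' scaling was kept because trimmed means (2% left out at each end) were nearly equal.

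Intensities under the pooled 25th percentile (45.9) were set to it before log2. The 59 control probe sets were left out, and probe sets that exceeded 255, the pooled 40th percentile, on 2 or more arrays, 5881 in all, were tested in 1 linear model of 4 group means with limma 3.58.1 (lmFit, eBayes with an intensity trend) in R 4.3.3. The fit had 4 residual and 4.63 prior degrees of freedom. P-values were two-sided and Benjamini-Hochberg adjusted over all probe sets tested, with a threshold of 0.05. Differences are Pax6 homozygous minus wild-type, or forebrain minus hindbrain, on the floored log2 scale. The floor lies below the noise level, so log2 changes of dim probe sets depend on it in either direction. "At least" folds set every array no lower than its noise level.

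The platform annotation named 7326 probe sets, 7018 with 1 symbol and 308 with several. Of the single ones, 6994 matched a rat RefSeq gene by Entrez identifier and 0 symbols changed. All 7 genes matched. A probe set naming Ttr with other genes was left out. The members and the gene lists were chosen with earlier results of these data known. The text names every member probe set, the retinoid gene with the smallest p of its role in a comparison, retinoic acid-responsive genes that were called or had the 4 smallest p-values, and the 3 genes most like each member in log2 value over 8 arrays, among tested genes above noise on at least 4 arrays. A gene's brightest tested probe set stood for it in list counts. Promoters came from RefSeq (GRCr8). The pipeline was tested on simulated data. Alternatives covered the floor, the filter, the variance trend, quantile scaling, the arrays fitted, a replicate block, gene means and leaving out each array.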

Additional observations from a re-analysis of the deposited data

How the results depend on the processing

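No member probe set was called for genotype or in the interaction under any alternative, and both Ttr probe sets stayed below the threshold by region, with adjusted p between 3.47e-07 and 0.00633 over the alternatives. The adjusted p of Aldh1a1 in forebrain lay between 0.150 and 1, and its change between -1.93 and -1.33 with 1 array left out. Of the values of member probe sets recomputed under the alternatives, 501 kept direction and side of the threshold, 20 changed sign and 5 passed the threshold where the reported value had not, the last being Cyp26b1 and Aldh1a2 by region as given above.

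Counts over all probe sets were 1 in forebrain, 1 in hindbrain, 2 over both regions, 0 for the interaction and 89 by region. With the pooled median as the floor they were 3 in forebrain, 15 in hindbrain, 10 over both and 8 for the interaction. With the noise level as the floor they were 3, 3 and 5 in forebrain, hindbrain and over both. With no filter they were 0 in forebrain, 22 in hindbrain, 19 over both and 13 for the interaction, and with no trend 0 in forebrain, 5 in hindbrain and 4 for the interaction. Fitting 1 region's arrays alone gave 0 in forebrain and 2 in hindbrain, and gene means gave 1 over both and 1 called member by region, because the 2 Ttr probe sets became 1 value. Leaving out 1 array gave 0 to 5 in forebrain (0 without the first Pax6 homozygous array, 5 and 3 without the first and the second wild-type array), 1 to 3 in hindbrain (3 without its second wild-type array), 1 to 5 over both, 0 to 1 for the interaction, 37 to 82 by region (37 and 41 without the second and the first Pax6 homozygous hindbrain array, 52 without the second wild-type hindbrain array), and 2 to 3 called member probe sets by region. The cause of these shifts was not tested.

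Signs turned for small or dim values. With the pooled median as the floor, Rbp4 over both was 0.0664, and the interactions of Cyp26b1 and rc_AA945169_g_at of Ttr were 0.38 and 0.42. With the noise floor the last was 0.24 and Aldh1a2 by region 0.0466. Crabp2 in hindbrain was 0.000205 after quantile scaling, and the Ttr interaction -0.0310 with gene means. With 1 array left out, the forebrain ranges were -1.15 to 0.28 for rc_AA945169_at, -1.41 to 0.0878 for rc_AA945169_g_at and -0.66 to 0.0183 for Crabp2. Crabp2 in hindbrain ran from -0.23 to 0.0684, and Rbp4 over both from -0.17 to 0.0289. Interaction ranges were -3.10 to 0.43 for Cyp26b1, -0.54 to 0.89 and -0.99 to 0.51 for the Ttr probe sets in that order, and -0.58 to 0.10 for Crabp2. With the pooled median as the floor, Aldh1a2 in every comparison and Ttr in forebrain had no value, because their arrays lay at the floor.

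With the replicate number as a block, 2 probe sets were called in hindbrain and 139 by region, and no member call changed. Same-numbered arrays deviated together with r of 0.275 to 0.465 over 6 pairs of groups, but the labels give them only a shared number. Noise of 243 to 619.8 limits Aldh1a2, Rbp4, Rxra and forebrain Ttr.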
